A study of Mus musculus with 12 samples.

Results

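The solute carriers are the transport proteins whose genes carry the symbol Slc, a family number and a letter with a member number. Every gene with a value and such a symbol was taken, apart from the mitochondrial carriers of family Slc25 and the genes Slc26a4 and Slc2a1. That gave 187 of the 11229 genes measured. The array annotation holds 285 genes that match the rule, and the other 98 had no value and were not analysed here. The 187 members fall into 48 families. By family number, the 183 carriers were grouped into 16 classes of substrate, and the 4 members that are not carriers form a group of their own. The rule uses symbols and no signal level, but it was set with earlier results of these data known. It also needs a value: of 25697 probes listed, 9033 were blank on all arrays and 0 on only some. Whether signal level decided which probes were blank was not tested.

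The samples were whole fallopian tubes of female C57BL6 mice of 7, 8 and 9 weeks, 1 wildtype and 1 mogp-TAg mouse at each age, so 3 mice per genotype. In the mogp-TAg strain the mouse oviductal glycoprotein promoter, active in the secretory epithelium, drives SV40 large T antigen, a viral protein that disables p53 and proteins of the RB family. The RNA came from all cells of the tube. Each mouse was measured on 2 Illumina BeadChip arrays that the labels call experimental repeats. No treatment is named for either genotype, and the comparison asks which carriers differ by genotype. Signals below are quantile-normalized array signals, and the 3 values of a genotype are always given in the order 7, 8 and 9 weeks.

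A solute carrier moves small molecules across a membrane by exchange, cotransport or facilitated diffusion, without splitting ATP itself. In epithelia such as that of the oviduct, carriers on the apical and basolateral faces set the ions, bicarbonate, sugars and amino acids of the luminal fluid in which gametes and embryos lie, driven largely by the sodium gradient that the sodium-potassium ATPase maintains. The symbol does not place a protein on the cell surface. Most Slc35 proteins and Slc33 work in the Golgi apparatus and the endoplasmic reticulum, Slc37a4 in the endoplasmic reticulum, and Slc17a5, Slc15a3 and Slc46a3 in lysosomes. 4 members, Slc9a3r1, Slc9a3r2, Slc7a6os and Slc4a1ap, are not carriers and were named after carriers they bind or neighbour. The set is therefore one of solute carriers by symbol, not of plasma membrane proteins.

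Before normalization the median signal of an array lay between 136.9 and 332, and for each mouse the repeat 1 array was the brighter one. The tissue label was checked against marker genes: Ovgp1, the oviduct glycoprotein of the secretory cells, had signals from 18540 to 23110 over the 6 mice, and Pax8, a transcription factor of the same cells, from 482 to 816. The cell type markers differed between the genotypes. Of the measured markers, 18 of 19 of ciliated cells, 11 of 13 of smooth muscle and 8 of 9 of mesothelium were lower in the transgenic tubes. In the same comparison 6 of 11 macrophage and myeloid markers were higher and 2 lower, and 7 of 7 proliferation genes were higher. The summed signal of the ciliated markers was 14910 to 18340 in wildtype and 4721 to 6742 in transgenic mice, that of smooth muscle 68300 to 76190 and 43300 to 52820, and that of mesothelium 8141 to 10430 and 4107 to 4708. For macrophages the sums were 5842 to 7591 and 9157 to 13800, and for proliferation 1506 to 2834 and 17060 to 24650. The secretory markers summed to 40150 to 42040 and 38350 to 44400, with 2 of 13 higher (Wfdc2 and Muc1) and 3 lower (Gpx3, Cftr and Chad). Most of these sums came from Ovgp1 (mean 22830 in wildtype, 19390 in transgenic mice) and Wfdc2 (6104 and 13120). The differences of these genes had opposite signs, so similar sums do not mean that the markers were unchanged. Of 8 measured ovary markers 0 passed, but 1 array stood apart: the repeat 2 array of the transgenic mouse of 7 weeks had a summed ovary signal of 5004, against 755.1 to 1339 on the other 11 arrays. Results that rest on that array are given with and without it, an alternative chosen after seeing the data. In whole tubes, fewer cells of a type and less RNA per cell cannot be told apart, and the part of these shifts in any carrier's difference was not tested.

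More solute carriers fell than rose in the transgenic tubes. Among the 187 members, 33 were lower and 8 higher, at an adjusted p below 0.05 by limma over all probes on the arrays; a member past that threshold is described as having fallen or risen. The 41 members that passed are 21.9% of the set, close to the 22.9% of all genes that passed. The shares differ by direction: 17.6% of members against 12.5% of all genes were lower, and 4.28% against 10.4% were higher. The median log2 difference, transgenic minus wildtype, was -0.09 over the members and -0.02 over all genes. At an unadjusted p below 0.05 there were 74 members, 39.6% of the set beside 37.2% of all genes. The mouse signals of the genotypes did not overlap for 76 members (40.6%), beside 41.1% of all genes; 11.8% of members lay higher and 28.9% lower, beside 18.9% and 22.3% of all genes. Slc7a4, Slc46a1, Slc1a3, Slc20a2 and Slc38a5, 5 members, passed the threshold with a difference over 1 on the log2 scale.

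The count of lower members changed when single mice were left out. Without the transgenic mouse of 8 weeks 13 members were lower and 5 higher (9.63% of members passing, beside 11.6% of all genes), and without the wildtype mouse of 9 weeks 17 and 6 (12.3% and 14.8%). Without the wildtype mouse of 7 weeks the counts were 18 and 8 (13.9% and 16.1%), and without the transgenic mouse of 9 weeks 20 and 9 (15.5% and 16.8%). Without the wildtype mouse of 8 weeks 28 were lower and 9 higher (19.8% and 20.7%), and without the transgenic mouse of 7 weeks 30 and 9 (20.9% and 23.8%). In each of these 6 fits, which share mice, the share of members that passed was below that of all genes. Other settings went both ways. The members' share was higher with median scaling (24.1% beside 23.6%) and array quality weights (43.9% beside 41.2%). It was lower on the repeat 1 arrays alone (15.5% beside 18.9%) and with the deposited values (21.9% beside 22.7%). With the ovary-marked repeat 2 array left out, 29 members were lower and 9 higher, 20.3% beside 21.5% of all genes, and all 8 and 28 of the 33 still passed, the exceptions being Slc15a2, Slc23a2, Slc37a4, Slc11a2 and Slc34a2. With age as a block 28 were lower and 8 higher, 19.3% of members beside 21.3% of all genes. In that fit 23 of the 33 and 7 of the 8 still passed. Those that did not were Slc1a1, Slc16a9, Slc12a7, Slc17a5, Slc38a10, Slc46a3, Slc35a5, Slc7a7, Slc37a4, Slc11a2 and Slc34a2. Slc7a4 and Slc46a1 passed under all 19 alternative settings that were run, and Slc1a3, Slc20a2, Slc4a8, Slc13a2, Slc6a8, Slc38a5, Slc35g1, Slc44a2 and Slc35f2 under all but the test against a minimum log2 difference of 0.5. The other 30 passed under 4 to 17 of the 19.

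**Figure D1:**
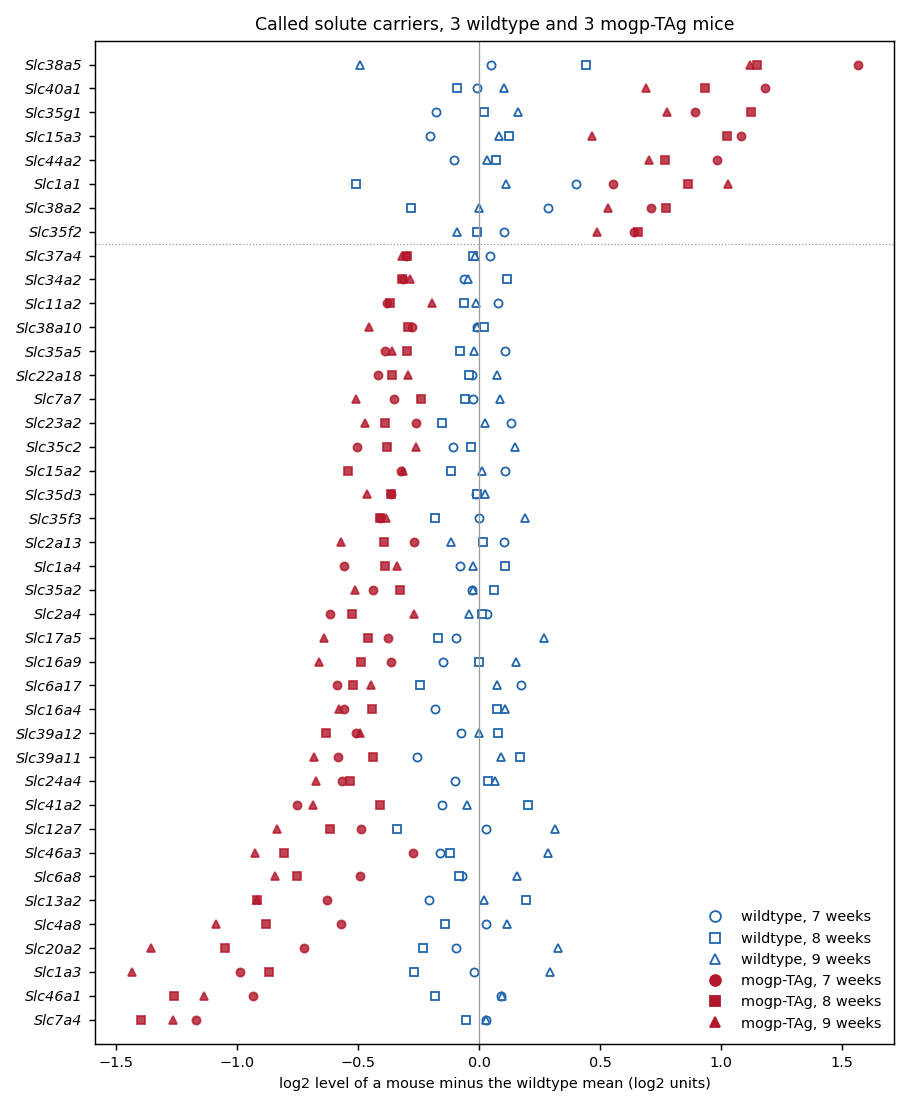
Log2 level of each mouse minus the wildtype mean for the 41 solute carriers that passed the threshold, sorted by difference. Open blue symbols are wildtype mice and filled red symbols mogp-TAg mice, with the symbol giving the age. The 8 higher members stand above the dotted line and the 33 lower members under it, from Slc7a4 (-1.28) to Slc37a4 (-0.31).

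Among the 29 amino acid carriers, 3 rose and 5 fell, and both directions held members of family Slc1 and family Slc38. Sequences upstream of the start are shown for 4 of the 8, since these carriers moved in both directions: Slc38a5 and Slc38a2 rose, and Slc7a7 and Slc1a3 fell. Each is the 250 bases before the annotated start from RefSeq on GRCm38.p6, read 5′ to 3′ on the gene's strand. The windows are chrX:8271131-8271380 (+ strand) for Slc38a5, chr15:96699729-96699978 (- strand) for Slc38a2, chr14:54417703-54417952 (- strand) for Slc7a7 and chr15:8710808-8711057 (- strand) for Slc1a3. Capitals mark TGATGCAA, the amino acid response motif that activating transcription factors of the ATF4 type can bind.
Slc38a5: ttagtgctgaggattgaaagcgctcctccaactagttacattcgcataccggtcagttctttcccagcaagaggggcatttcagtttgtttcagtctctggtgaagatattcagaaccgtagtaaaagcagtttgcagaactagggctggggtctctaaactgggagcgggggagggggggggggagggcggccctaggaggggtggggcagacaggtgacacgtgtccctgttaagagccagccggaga
Slc38a2: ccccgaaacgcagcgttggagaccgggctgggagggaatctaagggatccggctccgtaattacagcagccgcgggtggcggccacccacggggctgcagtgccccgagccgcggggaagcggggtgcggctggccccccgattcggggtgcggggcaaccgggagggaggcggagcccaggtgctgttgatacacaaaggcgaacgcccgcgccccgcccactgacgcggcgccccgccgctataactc
Slc7a7: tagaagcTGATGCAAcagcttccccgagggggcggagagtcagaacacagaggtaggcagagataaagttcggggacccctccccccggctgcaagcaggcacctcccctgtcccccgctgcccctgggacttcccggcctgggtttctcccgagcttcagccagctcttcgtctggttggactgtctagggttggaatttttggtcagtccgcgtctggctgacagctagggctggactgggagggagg
Slc1a3: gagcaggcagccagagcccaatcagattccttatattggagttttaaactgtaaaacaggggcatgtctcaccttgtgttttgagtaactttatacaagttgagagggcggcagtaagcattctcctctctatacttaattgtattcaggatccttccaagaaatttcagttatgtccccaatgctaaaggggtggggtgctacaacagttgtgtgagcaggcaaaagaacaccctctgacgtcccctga
The motif, searched on both strands, lies in 1 of the 4 windows, starting 243 bases before the start of Slc7a7. Of the 5 annotated starts of Slc7a7, 2 hold it. Their promoters overlap where the motif lies, so both hold the same site. The Slc7a7 window was picked among these starts for holding the motif, so its presence there is not an independent find. The share of G and C is 55.2% for Slc38a5, 72% for Slc38a2, 62.4% for Slc7a7 and 44.8% for Slc1a3. A promoter of 300 bases, 250 before and 50 after the start, was in the table for 146 of the 187 members. The motif occurred in 4 of these (2.74%), against 0.772% of the genes on the arrays: Slc1a4 and Slc7a7, which fell, and Slc7a11 and Slc50a1, which did not pass. It occurred in 0 of the 6 higher members with a promoter. For the E2F motif, read as TTTCCCGC, TTTGGCGC, TTTCGCGC or TTTGCCGC, the share was 2.74% of members and 4.24% of genes on the arrays, with 0 of 6 higher and 1 of 28 lower members holding it.

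Slc38a5, which carries glutamine, asparagine, histidine and serine together with sodium in exchange for protons, rose most of all members. Its signal was 214, 281 and 147 in the wildtype and 612, 458 and 449 in the transgenic mice. The lowest transgenic mouse lay above the highest wildtype mouse, a 2.42-fold rise (log2 1.28, SE 0.24, adjusted p = 0.00938). The transgenic mouse of 7 weeks read 435.8 on its repeat 1 array and 0.98 higher on the log2 scale on the repeat 2 array with the ovary markers; without that array the difference was 1.11 and passed (adjusted p = 0.0103). Slc38a2, the widely expressed sodium-coupled carrier of alanine and other small neutral amino acids, had signals of 3368, 2270 and 2761 against 4512, 4720 and 3996. The groups did not overlap, and the rise was 1.59-fold (log2 0.67, SE 0.15, adjusted p = 0.0194), but its other 2 probes differed by 0.34 and 0.03 and did not pass. The call was lost on the repeat 1 arrays alone and without the wildtype mouse of 9 weeks or the transgenic mouse of 8 weeks. Slc1a1, a high-affinity carrier of glutamate and cysteine, read 1315, 702 and 1076 in wildtype against 1466, 1812 and 2033 in transgenic mice. The wildtype mouse of 7 weeks came close to the transgenic mice, and the rise of 1.76-fold (log2 0.81, SE 0.23, adjusted p = 0.0452) held on both probes and under 10 of the 19 alternatives; it was lost without the wildtype mouse of 8 or 9 weeks or the transgenic mouse of 8 or 9 weeks, and with age as a block (adjusted p = 0.06).

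Slc7a4 fell furthest of the members that passed. It belongs by sequence to the carriers of cationic amino acids, and its own substrate is not settled. Signals of 584, 552 and 584 in wildtype stood against 254.5, 217.5 and 238 in transgenic mice, with an SD over mice of 0.05 and 0.11 on the log2 scale. The level was 2.43-fold lower (log2 -1.28, SE 0.09, adjusted p = 3.14e-04, 95% interval -1.49 to -1.07). Slc1a3, a glutamate and aspartate carrier best known from glia, had signals of 3820, 3209 and 4741 in wildtype against 1954, 2123 and 1430 in transgenic mice and was 2.14-fold lower (log2 -1.10, SE 0.19, adjusted p = 0.00708). Its groups did not overlap, and its lowest value was that of the transgenic mouse of 9 weeks. Smaller falls were those of Slc1a4, a carrier of alanine, serine and cysteine (-0.43), Slc7a7, the light chain that exports cationic amino acids (-0.37, on both probes), and Slc38a10 (-0.34).

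The heteromeric exchangers that import large neutral amino acids and cystine did not pass. Slc7a5, the light chain that takes up leucine, had signals of 1671, 2154 and 1492 in wildtype against 1661, 1355 and 1141 in transgenic mice, which overlapped (log2 -0.35, SE 0.18, adjusted p = 0.202). Its heavy chain Slc3a2 read 235, 199.5 and 240 in wildtype against 193, 163 and 187 in transgenic mice without overlap (log2 -0.31, SE 0.11, adjusted p = 0.0869). The cystine importer Slc7a11 differed by -0.25 with a 95% interval from -0.69 to 0.20, and the glutamine carrier Slc1a5 by -0.09. Slc7a1 and Slc43a1 were not analysed here. Of 20 measured genes of the amino acid response outside the set, 4 were higher, the transcription factor Atf4 (0.65), the serine synthesis enzymes Psat1 (0.79) and Phgdh (0.43) and the folate enzyme Mthfd2 (0.62). Asns, which makes asparagine, was lower at -1.37 (adjusted p = 0.00186), with signals of 800, 850 and 689 against 386, 290.1 and 245. Beside these 4 higher and 1 lower of 20, 10.4% of all genes were higher and 12.5% lower. Whether the list differs from that background was not tested.

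In family Slc6, which couples neurotransmitters, osmolytes and creatine to sodium and chloride, 0 of 10 members rose and 2 fell, and the median was -0.39. Slc6a8, the creatine carrier, had signals of 946, 938 and 1108 in wildtype against 706, 590.4 and 554 in transgenic mice. All 3 transgenic mice lay below all wildtype mice, 1.62-fold lower (log2 -0.70, SE 0.12, adjusted p = 0.00707). Slc6a17, which loads neutral amino acids into synaptic vesicles, fell by 0.52 on the log2 scale to signals of 114, 119.9 and 126. These transgenic values lie around the dimmest 25% of probes, whose bound is a signal of 125.2. Slc6a6, the taurine carrier, was among the 5 brightest members and did not pass: 3322, 3111 and 4309 in wildtype and 5022, 4059 and 4115 in transgenic mice (log2 0.30, SE 0.15, adjusted p = 0.187, 95% interval -0.04 to 0.65).

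The largest difference of any member was that of Slc6a2, the noradrenaline carrier of sympathetic nerve endings, and it did not pass; the gene was singled out after its values were seen. Signals were 136, 824 and 913 in wildtype and 114, 175 and 125 in transgenic mice (log2 -1.79, SE 0.67, adjusted p = 0.102). The wildtype mouse of 7 weeks lay within the transgenic range and both older wildtype mice far above it. On the arrays of the transgenic mouse of 8 weeks the signal was 113.7 and 268, so its repeats differed by 1.24 on the log2 scale. The other 2 probes of Slc6a2, with wildtype signals of 111 and 106, differed by -0.21 each.

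**Figure D2:**
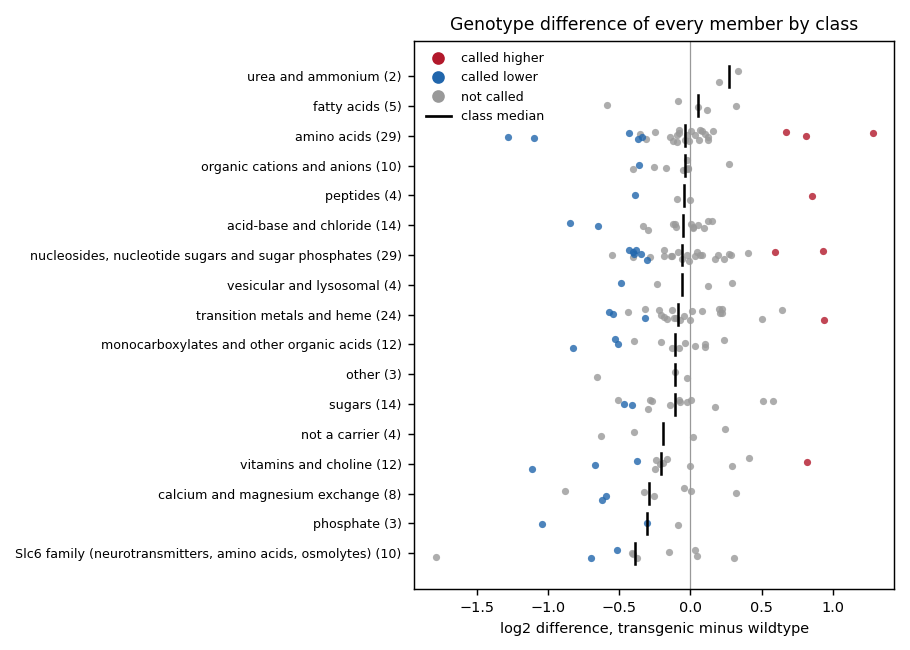
Log2 difference, transgenic minus wildtype, of each of the 187 members by class, with the number of members in brackets and the class median as a black bar. Red points rose, blue points fell and grey points did not pass; the amino acid class holds 3 of the 8 red points, and the Slc6 class has the lowest median at -0.39.

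Of 14 sugar carriers, 0 rose and 2 fell. Slc2a4, the insulin-responsive glucose carrier of muscle and fat, had signals of 294, 290.3 and 280 in wildtype against 188, 200.1 and 239 in transgenic mice (log2 -0.47, SE 0.11, adjusted p = 0.02). The wildtype mice lay close together and above all transgenic mice; the call was lost without the wildtype mouse of 7 or 9 weeks or the transgenic mouse of 8 weeks. Of 10 measured adipocyte markers 3 were lower and 7 did not pass, with sums of 4788 to 6410 in wildtype and 2211 to 4164 in transgenic mice; the smooth muscle sums are given above. Their part in the difference of Slc2a4 was not tested. Slc2a13, which carries myo-inositol with protons, fell by 0.41 to a transgenic signal of 121.4, near the floor. Its call was kept under 12 of the 19 alternatives. Slc2a3, the high-affinity glucose carrier and one of the 5 brightest members, read 4566, 3660 and 2612 in wildtype against 2748, 2395 and 2304 in transgenic mice; the wildtype mouse of 9 weeks lay inside the transgenic range (log2 -0.51, SE 0.20, adjusted p = 0.107), and the member passed with age as a block (adjusted p = 0.0479). Slc5a1 was not analysed here.

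Among 12 carriers of monocarboxylates and other organic acids, 0 rose and 3 fell. Slc13a2, which takes up citrate and succinate with sodium, gave 175, 230.5 and 205 in wildtype and 131, 107 and 107 in transgenic mice. The transgenic mean lay in the dimmest 25% of probes. The 1.77-fold fall (log2 -0.82, SE 0.13, adjusted p = 0.00532) may therefore be understated, which was not tested. Slc16a4 (-0.53, near the floor in the transgenic mice) and Slc16a9, which moves carnitine (-0.51, adjusted p = 0.0508 with age as a block), also fell. Slc16a3, the lactate exporter of glycolytic cells, was near the floor in both genotypes (log2 0.03, SE 0.08, adjusted p = 0.787). Slc16a1 was not analysed here. Outside the set, of 13 measured partners of these carriers and enzymes of lactate and pyruvate 1 was higher, the hexokinase Hk2 at 1.50 (adjusted p = 0.00134), with signals of 652, 630.2 and 421 against 1732, 1515 and 1487. Over all genes 10.4% were higher.

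Of 14 acid-base and chloride carriers, the class that drives fluid formation in epithelia, 0 rose and 2 fell. Slc4a8, which brings in sodium and bicarbonate in exchange for chloride, had signals of 441.5, 393 and 469 in wildtype against 291, 235 and 204 in transgenic mice. The genotypes did not overlap, and the fall of 1.8-fold (log2 -0.85, SE 0.14, adjusted p = 0.0065) was also seen on its second probe (-0.39). Slc12a7, a potassium-chloride cotransporter, read 361, 279 and 439 in wildtype against 252, 230.5 and 198 in transgenic mice (log2 -0.65, SE 0.17, adjusted p = 0.0369); the call was lost without the wildtype mouse of 7 or 9 weeks or the transgenic mouse of 8 or 9 weeks, and with age as a block (adjusted p = 0.0563).

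Slc12a2, the sodium-potassium-chloride cotransporter that loads secretory epithelia with chloride, was the brightest member, at 3603, 4975 and 4717 in wildtype and 3951, 5434 and 5061 in transgenic mice. The groups overlapped, and the difference was 0.12 with a 95% interval from -0.26 to 0.51; under median scaling its sign turned. The anion exchanger Slc26a6 differed by -0.10 near the floor. Slc4a4 was not analysed here. Of 7 measured kinases and ligase subunits that regulate cation-chloride cotransport, the activating kinase Stk39 was lower (-0.87, adjusted p = 8.85e-04; signals of 970, 1022 and 899 against 491, 543 and 545.5) and Cul3 higher (0.32). Of 9 measured subunits of the sodium-potassium ATPase and its FXYD partners, Fxyd3 was higher (0.58) and Fxyd1 lower (-0.47). Of 11 carbonic anhydrases, which make bicarbonate, Car2 (1.22) and Car5b (0.61) were higher and Car11, which lacks enzyme activity, was lower (-1.31). The background for these lists is 10.4% of all genes higher and 12.5% lower.

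Of 8 exchangers of calcium and magnesium, 0 rose and 2 fell. Slc41a2, a magnesium carrier, gave 320.5, 410.1 and 344 in wildtype against 211, 268 and 221 in transgenic mice without overlap (log2 -0.62, SE 0.13, adjusted p = 0.0158), a call lost without the transgenic mouse of 9 weeks. Slc24a4, which trades calcium and potassium for sodium, read 123, 135 and 138 in wildtype against 88.7, 90.9 and 82.4 in transgenic mice (log2 -0.59, SE 0.09, adjusted p = 0.00368), with the transgenic values at the array floor. Slc24a3 of the same family, named after its values were seen, varied between mice, with signals of 2324, 1241 and 2417 in wildtype against 1571, 926 and 772 in transgenic mice. Its genotypes overlapped and it did not pass (log2 -0.88, SE 0.33, adjusted p = 0.102). The transgenic mouse of 7 weeks read 1150 on its repeat 1 array and 2145 on the ovary-marked array. Without that array the difference was -1.03 and passed (adjusted p = 0.0341), and all transgenic mice lay below all wildtype mice.

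Of 24 carriers of transition metals and heme, 1 rose and 3 fell. Slc40a1 is ferroportin, the exporter that releases iron from cells, and its signal was 806, 761 and 869 in wildtype and 1837, 1549 and 1306 in transgenic mice. Every transgenic mouse lay above every wildtype mouse, 1.91-fold higher (log2 0.93, SE 0.13, adjusted p = 0.00323). The size depended on the repeat: the difference was 0.53 on the repeat 1 arrays, where it did not pass, and 1.33 on the repeat 2 arrays. Without the ovary-marked array it was 0.81 (adjusted p = 0.00185). Slc11a2, which imports ferrous iron, fell by 0.32 and passed under 6 of the 19 alternatives only.

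The zinc carriers belong to a pair of families. In Slc39, which brings zinc into the cytosol, 0 of 12 rose and 2 fell, Slc39a11 with 833, 1119 and 1058 against 665, 733.5 and 619 (log2 -0.57, SE 0.13, adjusted p = 0.0214) and Slc39a12 with 134, 149 and 140.4 against 99, 90.8 and 99.9 (log2 -0.55, SE 0.09, adjusted p = 0.00484). Both had genotypes that did not overlap. The call of Slc39a11 was lost without any one of the wildtype and transgenic mice of 8 and 9 weeks, and Slc39a12 lay near the floor in the transgenic mice. In Slc30, which takes zinc out of the cytosol, 0 of 6 passed, with differences from -0.19 to 0.20, among them 0.08 for Slc30a1. The difference between the families was not tested. Slc39a14, which carries zinc and iron, differed by 0.22 from wildtype values near the floor (adjusted p = 0.0775). Its second probe, dimmer in wildtype, differed by 0.40 and did not pass either (adjusted p = 0.054). Of 15 measured genes of zinc and iron handling outside the set, the transferrin receptor Tfrc (1.27, adjusted p = 0.0120) and the iron regulatory protein gene Ireb2 (0.72) were higher and 0 were lower. Over all genes 10.4% were higher and 12.5% lower. The metal response motif, TGCACNC or TGCGCNC on either strand, occurred in 42.5% of the members' promoters and in 38.9% of those of all genes on the arrays.

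Among 29 carriers of nucleosides, nucleotide sugars and sugar phosphates, 2 rose and 6 fell, and 22 of these 29 belong to family Slc35. Slc35g1, a member of that family, had signals of 192, 221 and 244 in wildtype against 404, 474 and 373 in transgenic mice. The groups did not overlap, and the rise was 1.9-fold (log2 0.93, SE 0.13, adjusted p = 0.00268). Slc35f2 read 119.8, 111 and 105 in wildtype against 174, 175.5 and 156 in transgenic mice (log2 0.59, SE 0.09, adjusted p = 0.00461), from wildtype values near the floor. The members that fell were Slc35a2, which brings UDP-galactose into the Golgi (-0.43), Slc35f3 (-0.40), Slc35d3 (-0.40), Slc35c2 (-0.38, on 1 of 3 probes), Slc35a5 (-0.35) and Slc37a4, the glucose-6-phosphate carrier of the endoplasmic reticulum (-0.31). Slc35d3 and Slc37a4 were near the floor in both genotypes, and Slc35f3 was near it in the transgenic mice. Slc29a1, the equilibrative nucleoside carrier, differed by 0.17 (adjusted p = 0.393).

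Among 12 carriers of vitamins and choline, 1 rose and 3 fell. Slc44a2, a choline carrier of the cell surface and of mitochondria, was among the 5 brightest members, with 1978, 2232 and 2171 in wildtype and 4195, 3621 and 3457 in transgenic mice. The genotypes stood well apart, a 1.76-fold rise (log2 0.82, SE 0.10, adjusted p = 0.00188), and its other 2 probes rose by 0.93 and 0.75. Slc46a1, the proton-coupled carrier that takes up folate, gave 391.5, 324 and 393 against 192.5, 153 and 167. The transgenic mice all lay below the wildtype mice, 2.16-fold lower (log2 -1.11, SE 0.12, adjusted p = 0.00109, 95% interval -1.40 to -0.83). Slc46a3 of the lysosome read 503, 517.5 and 685 in wildtype against 465, 322 and 296 in transgenic mice, the 7-week mice of the genotypes lying close together (log2 -0.67, SE 0.20, adjusted p = 0.0476), and the call was lost without any one mouse other than the transgenic mouse of 7 weeks, and with age as a block (adjusted p = 0.0771). Slc23a2, which takes up vitamin C, fell by 0.37, and the reduced folate carrier Slc19a1 differed by -0.19 (adjusted p = 0.438).

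**Figure D3:**
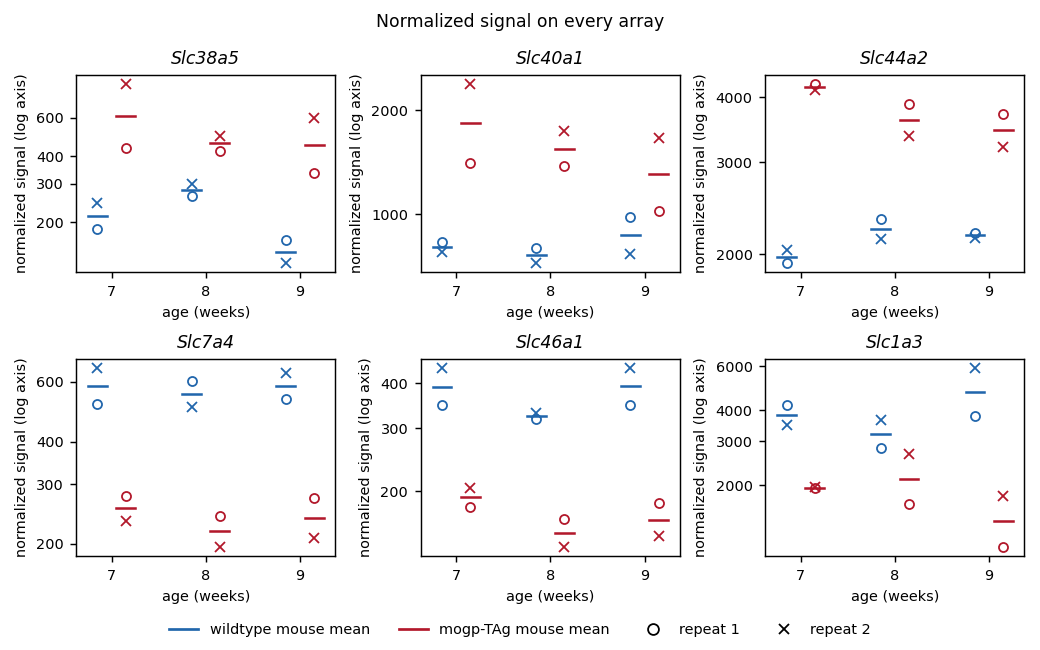
Quantile-normalized signal on each of the 12 arrays, on a log axis, for 3 members that rose and 3 that fell. Circles are repeat 1, crosses repeat 2 and bars the mean of a mouse on the log scale, in blue for wildtype and red for mogp-TAg mice. For Slc40a1 all 3 transgenic mice read higher on repeat 2, with 2390 against 1412 at 7 weeks.

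All 3 phosphate carriers had negative differences, and 2 of them fell. Slc20a2, the widespread sodium-phosphate carrier, had signals of 757, 688 and 1014 in wildtype against 489, 390.1 and 316 in transgenic mice. Its genotypes did not overlap, and it was 2.06-fold lower (log2 -1.04, SE 0.20, adjusted p = 0.01). Slc34a2, the apical phosphate carrier of secretory epithelia such as the lung, gave 358, 405 and 363 in wildtype against 301, 301 and 307 in transgenic mice (log2 -0.31, SE 0.08, adjusted p = 0.0385), a call kept under 4 of the 19 alternatives and lost, among others, with age as a block (adjusted p = 0.0697) and without the ovary-marked array (adjusted p = 0.187). Among 4 peptide carriers 1 rose and 1 fell. Slc15a3, which moves histidine and peptides out of lysosomes of immune cells, read 135, 169.5 and 165 in wildtype against 329, 316 and 215 in transgenic mice (log2 0.86, SE 0.18, adjusted p = 0.0146). The macrophage sums given above were also higher in all 3 transgenic mice, and their part in the difference of Slc15a3 was not tested. Slc15a2, which takes up dipeptides and tripeptides with protons, fell by 0.39. The call of Slc15a3 was lost without the transgenic mouse of 8 weeks, and that of Slc15a2 without that mouse, the transgenic mouse of 9 weeks or the wildtype mouse of 7 or 9 weeks, and without the ovary-marked array (adjusted p = 0.122).

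The remaining classes gave few calls. Of 10 carriers of organic cations and anions 1 fell, Slc22a18, an imprinted gene (-0.36), while the carnitine carrier Slc22a5 differed by -0.17 (adjusted p = 0.57). Of 4 vesicular and lysosomal carriers 1 fell, Slc17a5, which exports sialic acid from lysosomes (-0.49, adjusted p = 0.0746 with age as a block). Of the 5 fatty acid carriers, 2 urea carriers and 3 members of other families 0 passed; the lowest p in each class belonged to Slc27a1 (-0.59, adjusted p = 0.117), Slc14a2 (0.34, adjusted p = 0.19, near the floor) and Slc66a2 (-0.65, adjusted p = 0.0669). At an unadjusted p below 0.05 these 3 classes held 1, 0 and 1 member. Of the 4 members that are not carriers 0 passed, and Slc9a3r1, a scaffold that anchors carriers under the apical membrane, came nearest with 1688, 2605 and 1995 against 1084, 1298 and 1684 (log2 -0.63, SE 0.20, adjusted p = 0.0669); it passed with age as a block (adjusted p = 0.0434). The organic anion carriers with symbol Slco lie outside the rule. Of 5 measured, 1 was higher, beside 10.4% of all genes. That was Slco4a1, with signals of 82.5, 89.5 and 77.6 against 313, 354 and 252 (log2 1.87, adjusted p = 3.34e-04). Its rise starts near the array floor and may be understated, which was not tested.

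Many carriers were dim, and their differences may be limited by the array floor, which was not tested. The median wildtype signal was 218 over the members and 276.7 over all genes, and 47 members (25.1%) lay in the dimmest 25% of probes in both genotypes, beside 18.2% of all genes. Of the 33 lower members 9 were that dim in the transgenic mice, and 2 of these in wildtype mice too. When the dimmest probes were left out, 26.1% of the 134 members still tested passed, beside 26.9% of all genes tested. The 5 brightest members by mean signal were Slc12a2, Slc6a6, Slc2a3, Slc38a2 and Slc44a2. Of these 2 rose and 3 did not pass. Signals of different probes are not comparable as amounts of RNA, so this order is one of brightness only. 42 members had more than 1 probe. Of these, 35 had all probes on the same side of the threshold, most of them with no probe past it. Every probe passed for Slc1a1, Slc44a2, Slc4a8, Slc7a7 and Slc35a5. Only some of the probes passed for Slc38a2, Slc35c2, Slc39a4, Slc11a1, Slc44a1, Slc39a7 and Slc4a3.

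**Figure D4:**
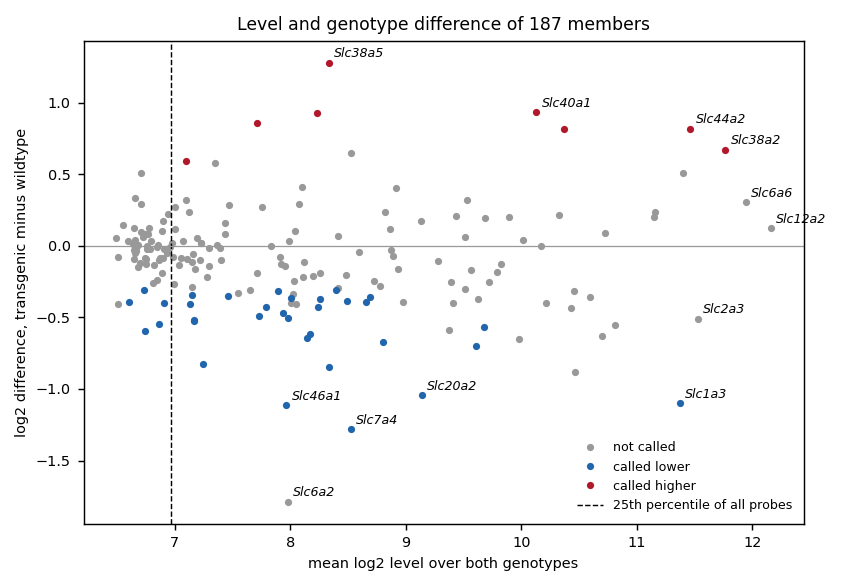
Log2 difference, transgenic minus wildtype, against the mean log2 level over both genotypes for the 187 members. Red points rose, blue points fell, grey points did not pass, and the dashed line is the bound of the dimmest 25% of probes (log2 6.97). The named bright members on the right hold both directions, with Slc44a2 and Slc38a2 above 0 and Slc1a3 under -1.

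With 1 mouse of each genotype per age, no age could be tested on its own. Over all ages, 0 members had a genotype difference that changed with age and 0 an age trend shared by the genotypes, by limma at an adjusted p below 0.05; the background was 0% of all genes for each. At an unadjusted p below 0.05 there were 18 and 16 members, 9.63% and 8.56% of the set beside 7.13% and 8.97% of all genes, and the lowest adjusted p were 0.755 and 0.574. The lowest p for the interaction belonged to Slc7a11, the cystine importer, whose signals were 396, 495 and 503 in wildtype and 488, 409 and 296 in transgenic mice, a slope of -0.53 per week (SE 0.12). Slc5a8, a carrier of short-chain acids counted with the sugars by its family number, followed at -0.49 per week, and Slc35b3, which brings the sulfate donor into the Golgi, at -0.48. For Slc5a8 the transgenic mouse of 7 weeks was high, with 100.8 on its repeat 1 array and 1.59 more on the log2 scale on the repeat 2 array that also carried the ovary markers. Without that array the slope of Slc5a8 was -0.10 per week, that of Slc7a11 -0.53 and that of Slc35b3 -0.46, and 13 and 15 members had an unadjusted p below 0.05. The part of ovary tissue in these values was not tested. For the shared trend the lowest p were those of Slc52a3, a riboflavin carrier (-0.47 per week), Slc2a3 (-0.27) and Slc10a6, which carries sulfated steroids (-0.36).

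**Figure D5:**
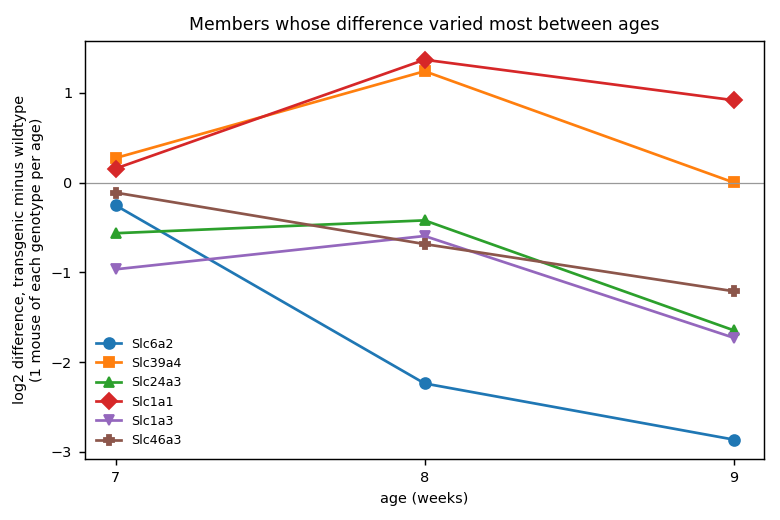
Log2 difference, transgenic minus wildtype, at 7, 8 and 9 weeks for the 6 members whose difference ranged most between ages, with 1 mouse of each genotype per point and no test. Slc6a2 ranged over 2.61, and the median range over the members was 0.31; 9 members ranged over more than 1.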

How the data were processed

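Total RNA of 6 tubes, converted to biotin-labelled cRNA, was measured on 12 Illumina BeadChip arrays, 2 per mouse. The values the authors deposited are a score, standardized array by array. The submitters' processing notes name GenomeStudio 1.6.0. Background subtraction is not stated in the sources used here. A single check by hand against the series' unnormalized scanner table pointed to log signals that had been centred and scaled. The base of the log cannot be told from such scores. The 12 signal and 12 detection columns of that table match no single sample by name, and these 24 entered no result. Solving for 1 centre and 1 scale per array returned signals with 1 decimal for 100% of the values, within 0.01 of the last digit, and 100% in 6 runs on simulated arrays. The deposited columns had medians from 0.011 to 0.222, and the lowest signal of an array was 59.1 to 87.8.

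Of 25697 probes listed, the 16664 with values on all arrays were tested. The platform annotation names 1 gene for 15687 of them, 0 probes carry several and 977 none, and 15679 matched the current gene table by Entrez identifier. The 187 members have 243 probes, and the brightest probe stood for a gene. Signals were quantile-normalized, put on the log2 scale and averaged over the 2 arrays of a mouse. Differences were tested two-sided with lmFit and eBayes of limma 3.58.1 in R 4.3.3 on the 6 mouse means, with Benjamini-Hochberg adjustment over all probes. Residual degrees of freedom were 4 for genotype, 2 for the age interaction and 3 for the age trend. In these tests the mouse is the replicate, so precision is bounded by having 3 animals of each genotype. The second array of a mouse adds no degree of freedom. A member near the floor has a mean in the dimmest 25% of probes, under a signal of 125.2. The labels do not say whether the repeats share an RNA extract. The repeat number pairs arrays, since the repeat 2 minus repeat 1 differences of the mice correlated with each other at 0.109 to 0.638.

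The members, classes and lists were chosen with earlier results of these data known. The text names the 12 highest and lowest members past the threshold, 25 fixed members of which 19 had a value, up to 3 per class or else the lowest p, the 5 brightest, the 3 lowest p for age, and the 2 highest and lowest past the threshold in each related list, plus the other members that passed; members named beyond this are said to be so. Promoters came from RefSeq on GRCm38.p6. Python 3.11.15, numpy 2.4.6, pandas 2.3.3 and matplotlib 3.10.9 were used. The alternatives were median scaling, normexp with an offset of 50, the deposited values, a filter on dim probes, array weights, all 12 arrays with mouse as a random block, a replicate block, age as a block, each repeat alone, the mean of a gene's probes, a minimum log2 difference of 0.5, leaving out each mouse and, added after seeing the data, leaving out the ovary-marked array.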

Additional observations from a re-analysis of the deposited data

How the results depend on the processing

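The 8 higher and 33 lower members became 24 and 58 with array quality weights (43.9% of members beside 41.2% of all genes) and 0 and 2 against a minimum log2 difference of 0.5 (1.07% beside 4.01%), the 2 being Slc7a4 and Slc46a1. On the repeat 1 arrays alone 21 were lower (15.5% beside 18.9% passing). Leaving out 1 mouse gave 5 to 9 higher and 13 to 30 lower. The fit with the repeat number as a replicate block had 12 higher and 46 lower (31% beside 28.4%) and kept the 8 and the 33; the other settings stayed within 1.5 times. Under every setting 0 members passed in the opposite direction. The 2 age counts remained 0 under median scaling, normexp, the deposited values, the filter on dim probes, the ovary-marked array left out and the replicate block, whose lowest adjusted p were 0.469 and 0.173. Of 1019 values of named members under alternatives, 862 kept their direction and side of the threshold, 118 lost the call, 25 gained it and 14 turned sign. Those 14 belong to members that did not pass. They were -0.029 for Slc12a2 and -0.018 for Slc16a3 under median scaling, -0.031 for Slc16a3, -0.02 for Slc10a6, -0.021 for Slc30a1 and 0.078 for Slc22a5 on repeat 1, 0.001 for Slc1a5 and 0.085 for Slc22a5 with the mean of probes, and -0.001 for Slc16a3 without the ovary-marked array. Leaving out 1 mouse, Slc10a6 ranged from -0.06 to 0.411, Slc12a2 from -0.022 to 0.257 and Slc52a3 from -0.571 to 0.031. The cause was not tested.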

Other observations

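Several members had probes that did not give 1 answer; these genes were picked after their values were seen. Slc39a4, a zinc importer of epithelia, did not pass on its bright probe (0.51, adjusted p = 0.367), where the wildtype signals ran from 1400 to 3626 and overlapped the transgenic ones. Its dim second probe was higher, from 140 to 237 (0.76, adjusted p = 0.0334). Slc11a1, the metal carrier of macrophage phagosomes, was higher on 1 dim probe of 4 (0.47), and its bright probe differed by 0.22. The choline carrier Slc44a1 was higher on its dim probe (0.44) and differed by -0.22 on the bright one. Slc39a7, which releases zinc from the endoplasmic reticulum, was lower on the second of 3 probes (-0.46), and the anion exchanger Slc4a3 on 1 of 3 (-0.44).

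The repeats of a mouse differed for some genes far more than for most members, whose median difference was 0.17 to 0.21 on the log2 scale. The fat cell gene Adipoq had repeat 2 minus repeat 1 differences of -3.11, -2.73 and -2.04 in the wildtype mice of 7, 8 and 9 weeks, and of -0.25, 0.21 and 0.13 in the transgenic mice. The repeats of Slc2a4 differed by at most 0.17. The part of fat cells in these values was not tested. Among the members, Slc16a6, Slc35b1, Slc6a2, Slc2a6 and Slc5a8 had a repeat difference over 1 in at least 1 mouse.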
